A study of Caenorhabditis elegans with 12 samples.

Results

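The astacins described here are 28 nas genes (nematode astacins) of Caenorhabditis elegans, out of 45327 genes in the count table. A gene was taken when its symbol started with nas- and its mean over the 12 libraries was at least 5 normalized counts. The table lists 37 such symbols, and 9 of them fell under that minimum. RNA came from whole worms at the L4 larval stage, with 3 biological replicates in each of 4 groups: wrn-1(gk99) mutants grown with vitamin C, untreated wrn-1(gk99) mutants, wild type N2 worms grown with vitamin C, and untreated N2 worms. The treated plates held 10 mM sodium L-ascorbate from the L1 stage on, and all groups were kept at 25°C. The gk99 allele is a deletion in wrn-1, the worm ortholog of the Werner syndrome helicase gene, in a strain outcrossed to N2. The mutants developed more slowly, so worms of every group were matched by the form of the vulva and gonad and not by hours. All values are from whole animals, in which fewer cells of a type and less RNA per cell cannot be told apart.

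Astacins are zinc metalloendopeptidases, named after a digestive enzyme of crayfish, that are made as inactive precursors and cut proteins outside the cell. In worms they serve at least 2 kinds of task. NAS-36 and NAS-37 are needed for ecdysis, in which the larva sheds its old cuticle at each molt, NAS-38 is a related enzyme linked to molting and to the quiescence that goes with it, and DPY-31 trims procollagens of the cuticle. NAS-6 and NAS-7 act in the digestive tract, where they are needed for the grinder of the pharynx, and nas-12 is known as a gene of the pharyngeal glands. The levels of many cuticle and molting transcripts swing with the molting cycle within each larval stage. The family is divided into subgroups I to VI by the domains that follow the protease domain, with the digestive genes in subgroups I and II, the ecdysis genes in subgroup V, and the tolloid-like NAS-39 alone in subgroup VI. Of the 28 genes, 14 belong to subgroups I and II, 7 to subgroup III, 2 to subgroup IV, 4 to subgroup V and 1 to subgroup VI.

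The libraries held 13446257 to 34234211 reads on genes (median 20136361). The library labelled N2 vitamin C replicate 3 stood apart from the other libraries of its label. Over all genes its correlation on the log scale was 0.993 to 0.995 with the 3 libraries of treated wrn-1(gk99) worms and 0.964 with each of the other N2 libraries grown with vitamin C. The treated wrn-1(gk99) libraries correlated at 0.991 to 0.994 among themselves, and replicates 1 and 2 of treated N2 at 0.992. Among the 28 nas genes replicate 3 of treated N2 lay closest to the treated wrn-1(gk99) mean for 20, to the untreated wrn-1(gk99) mean for 5, to the untreated N2 mean for 3 and to that of the other treated N2 libraries for 0. The library is kept under its label, and calls of nas genes that change without it are given both ways. The groups share 1 variance in each test, so this library also enters the SE of comparisons to which its group does not belong. The wrn-1 transcript itself had 835, 648 and 671 normalized counts in treated wrn-1(gk99) worms and 854, 789 and 699.9 in untreated ones, against 407, 380.3 and 614 in treated N2 and 516, 499 and 502 in untreated N2. The deletion thus did not remove the counts of wrn-1. All wrn-1(gk99) libraries lay above all N2 libraries, of which replicate 3 of treated N2 was the highest. This level alone does not settle the label of that library. In each list of values that follows, libraries stand in the order of replicates 1, 2 and 3.

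Per kilobase of exon in the WBcel235 annotation, nas-15 led in every group. In treated wrn-1(gk99) worms it had 1514 normalized counts per kilobase, with nas-11 (618) and nas-37 (572) next. In untreated wrn-1(gk99) worms nas-15 had 1041 per kilobase and the ecdysis gene nas-37 stood next with 1026. In treated N2 worms nas-15 had 1012 per kilobase and nas-38 followed with 639, and without replicate 3 they had 765 and 679. In untreated N2 worms nas-15 had 1411 per kilobase, nas-7 had 1095, nas-38 had 1053, nas-28 had 778 and nas-23 had 731, while nas-37 had 505 and the lowest, nas-10, had 5.93. Of the 9 genes under the minimum, nas-2, nas-17 and nas-40 were listed at 0 in every library, and the other 6 had means of 0.165 (nas-22) to 2.34 (nas-20). The WBcel235 annotation holds 2 copies of nas-2 and no coding sequence for nas-40. How reads that match both copies were counted is not given, so a listed 0 need not mean that RNA was absent. The gene just inside the minimum was nas-10, with a mean of 7.07. All 9 genes under the minimum lie on chromosome V, which holds 5 of the 28 members, while 8 members lie on chromosome X. Exons of 12 members share bases with another annotated gene. The overlap was longest for nas-4 (437 bases) and nas-39 (276 bases), both on the same strand, and how reads in such stretches were counted is not given in the sources used here.

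**Figure D1:**
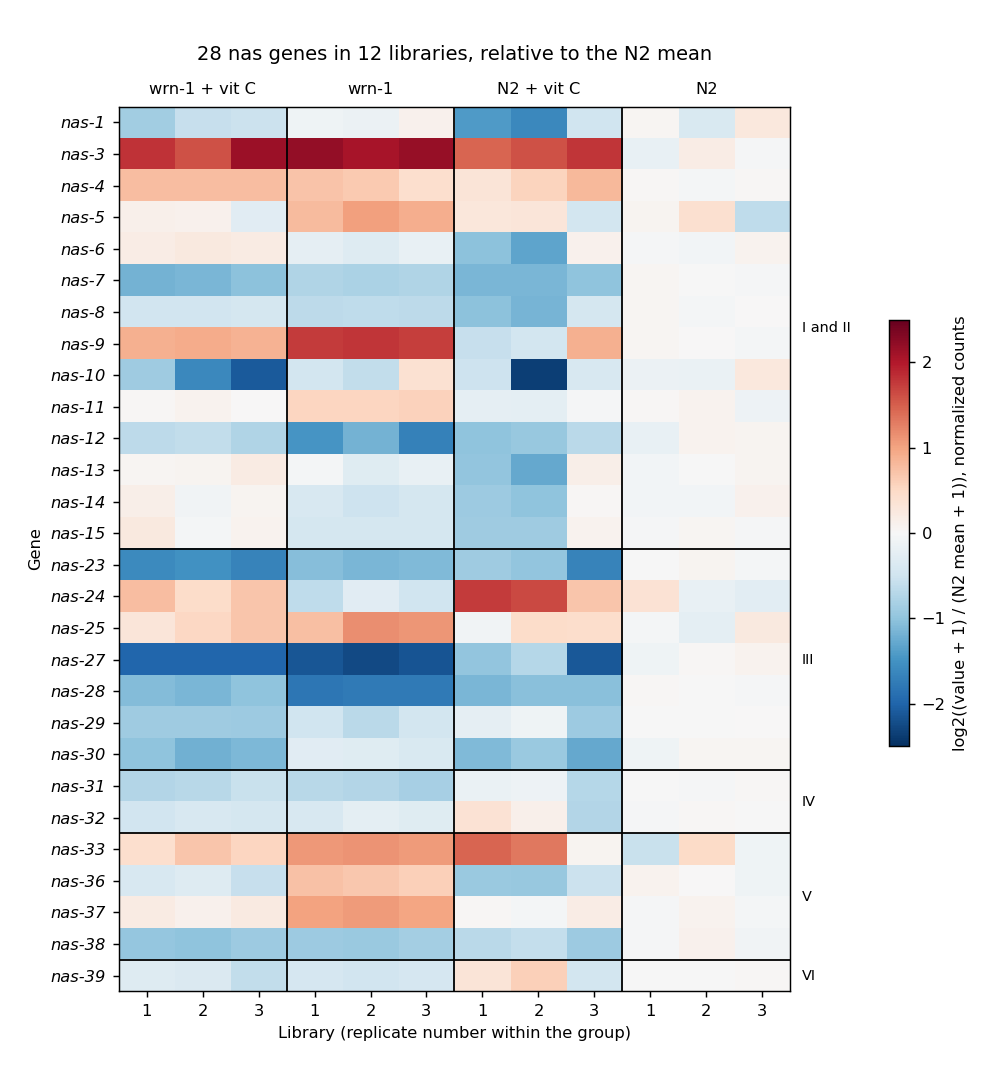
Level of each of the 28 nas genes (down, by number, with the subgroup at the right) in each of the 12 libraries (across), as log2 of the normalized count plus 1 over the untreated N2 mean plus 1, red higher and blue lower. The row of nas-3 is red in all 9 libraries outside untreated N2, nas-27 and nas-28 are blue in all 9, and the column of N2 vitamin C replicate 3 resembles the treated wrn-1 columns more than the N2 vitamin C columns beside it.

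The groups were compared in 6 ways with limma over the 15332 genes whose mean was at least 5. A gene was called changed when its adjusted p was under 0.01, its group means differed at least 2-fold, and the mean of a compared group exceeded the read level above which the study detected a product by RT-PCR. Of the 28 nas genes, 11 were called in at least 1 of the 6 comparisons and 17 in none. The share of all genes called in at least 1 comparison was not computed, so this count is not read as a trait of the family. In untreated wrn-1(gk99) against untreated N2 worms 7 of 28 were called, against 10.1% of all genes tested. The 3 that rose were nas-3, nas-9 and nas-37, and the 4 that fell were nas-12, nas-23, nas-27 and nas-28, where 3.97% of all genes were called higher and 6.16% lower. The libraries of the groups did not overlap for 25 of the 28 members, against 73.3% of all genes. The median log2 difference of the 28 was -0.32, beside 0.01 over all genes. Scaling all libraries to equal totals moved the median of all genes to 0.17 in this comparison. Unless equal totals are named, the differences given here are on the deposited scaling and are not corrected for that shift.

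Vitamin C in the mutant changed 1 of 28 members past all criteria, the ecdysis gene nas-36, which fell. Of all genes 1.68% were called in that comparison, 1.23% higher and 0.45% lower. In N2, 6 of 28 were called, against 2.33% of all genes. Of these nas-3 rose (1.08% of all genes), and nas-7, nas-23, nas-27, nas-28 and nas-30 fell (1.25%). Without replicate 3 of treated N2 worms the number called was 5, all lower, against 4.3% of all genes (2.42% higher, 1.88% lower), and 3 of the 5 (nas-7, nas-28 and nas-30) were also called with it. The other 2 were nas-6 and nas-8. In treated wrn-1(gk99) against untreated N2 worms nas-3 rose and nas-7, nas-23, nas-27, nas-28 and nas-30 fell, 6 of 28 against 3.46% of all genes (0.952% higher, 2.5% lower). Under scaling to equal totals nas-7, nas-28 and nas-30 missed the 2-fold criterion in both of these comparisons with N2. These comparisons share the untreated N2 libraries.

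Between treated wrn-1(gk99) and treated N2 worms limma called 0 of 28 members and 0% of all genes. At an unadjusted p under 0.05 there were 15 of 28 members and 40.1% of all genes, and edgeR called 0 members and 0% of all genes, while DESeq2 called 0 members and 1.02% of all genes. Without replicate 3 of treated N2 worms 4 members were called, against 6.38% of all genes (3.27% higher, 3.11% lower), with nas-6, nas-9 and nas-14 higher and nas-27 lower in the treated mutant. The response to vitamin C differed between the strains for 4 of 28 members, against 5.75% of all genes (3.76% higher, 1.98% lower). It was higher in wrn-1(gk99) than in N2 for nas-8, nas-12 and nas-28 and lower for nas-3. Without that library 8 members were called, against 7.34% of all genes (4.13% higher, 3.22% lower), namely the same 4 and nas-6, nas-14, nas-15 and nas-27, which were higher.

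Of the ecdysis genes, nas-37 had 1482, 1389 and 1492 normalized counts in treated wrn-1(gk99) worms, 2596, 2675 and 2557 in untreated wrn-1(gk99), 1311, 1237 and 1456 in treated N2, and 1253, 1365 and 1235 in untreated N2 worms. The 3 untreated mutant libraries lay above all others. The untreated mutant mean was 2.03 times that of untreated N2, a log2 difference of 1.02 (SE 0.07, adjusted p = 5.55e-07, limma). Without untreated N2 replicate 3 the difference was 0.996 (adjusted p = 8.91e-06, limma) and the gene was not called, since the ratio then lay just under 2. Against untreated mutants, treated mutants had 0.557 times the count (log2 -0.84, SE 0.07, adjusted p = 1.54e-05, limma), which missed the 2-fold criterion. In N2 the treated and untreated libraries overlapped, with a log2 difference of 0.05 (SE 0.07, adjusted p = 0.658, limma), and of -0.01 without replicate 3. The response in wrn-1(gk99) was 0.90 lower than that in N2 on the log2 scale (SE 0.11, adjusted p = 8.61e-05, limma), short of the difference of 1 required for a call.

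The second ecdysis gene, nas-36, had 427, 454 and 379 normalized counts in treated wrn-1(gk99) worms, 935, 904 and 848 in untreated wrn-1(gk99), 297, 294 and 391 in treated N2 and 602, 566 and 526 in untreated N2 worms. Its untreated mutant libraries were the highest, and in each strain the treated libraries lay below the untreated ones. It fell in treated against untreated mutants by 1.09 on the log2 scale (SE 0.12, adjusted p = 5.93e-05, limma), to 0.469 times the mean. In N2 the treated mean was 0.579 times the untreated one (log2 -0.80, SE 0.12, adjusted p = 0.000533, limma), and without replicate 3 the log2 difference was -0.93. The difference between these responses was -0.30 (SE 0.16, adjusted p = 0.218, limma). Untreated mutants had 1.59 times the count of untreated N2 (log2 0.67, SE 0.12, adjusted p = 0.000502, limma), which is under 2-fold.

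The third gene of the molt list, nas-38, had 1245, 1206 and 1280.2 normalized counts in treated wrn-1(gk99) worms, 1285, 1269 and 1333 in untreated wrn-1(gk99), 1516, 1600.4 and 1289 in treated N2 and 2364, 2608 and 2284 in untreated N2. Unlike nas-36 and nas-37, it was highest in untreated N2, and the mutant groups overlapped. The untreated mutant mean was 0.536 times that of untreated N2 (log2 -0.90, SE 0.09, adjusted p = 4.75e-06, limma), and the treated N2 mean was 0.607 times it (log2 -0.72, SE 0.09, adjusted p = 0.000118, limma; 0.644 times without replicate 3). Neither ratio reached 0.5. Within the mutant, vitamin C went with a log2 difference of -0.06 (SE 0.09, adjusted p = 0.709, limma). The ratio of nas-37 to nas-38 within a library, which no scaling between libraries can alter, averaged 1.17 ± 0.0195 in treated wrn-1(gk99), 2.02 ± 0.0953 in untreated wrn-1(gk99), 0.922 ± 0.185 in treated N2 and 0.531 ± 0.0088 in untreated N2 worms (SD, n = 3 each). The treated N2 libraries had ratios of 0.865, 0.773 and 1.13, of which that of replicate 3 stood closest to the treated mutants. The fourth member of subgroup V, nas-33, had group means of only 24.3 to 52.8 with all libraries. These lay under the read level required, so it could be called in none of the comparisons. Without replicate 3 its treated N2 mean was 65.1, with a log2 difference from untreated N2 of 1.45 (1.01 with all libraries). In that fit its responses to vitamin C differed by -1.99 (-1.55 with all libraries). Both differences were at an adjusted p under 0.01 (limma) only without replicate 3.

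**Figure D2:**
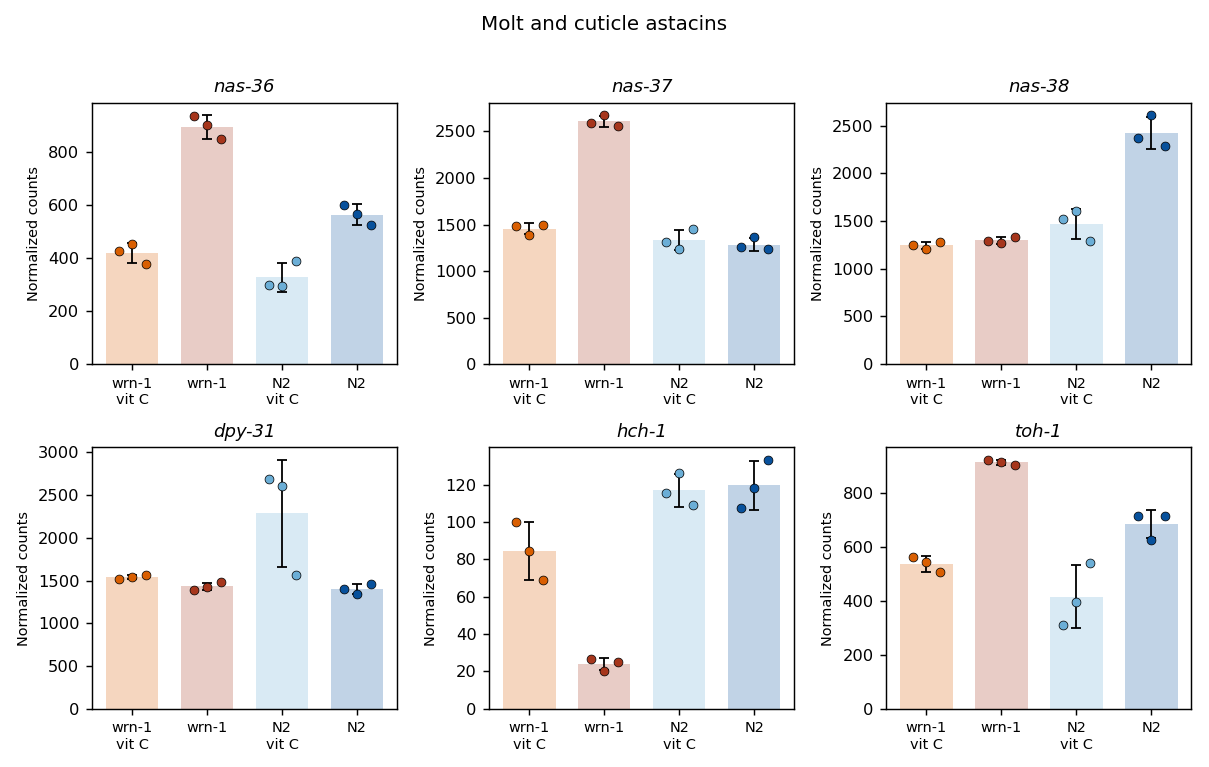
Normalized counts of nas-36, nas-37 and nas-38 (top) and of the astacins dpy-31, hch-1 and toh-1 (bottom) in the 4 groups. Points are libraries, bars are means and error bars are SD (n = 3); nas-37 stands at 2557 to 2675 in untreated wrn-1 libraries and at 1235 to 1492 in all others, while nas-38 stands at 1206 to 1600.4 in the other groups and at 2284 to 2608 in untreated N2.

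In the digestive tract list nas-7, a gene of the pharyngeal grinder, was lowest wherever vitamin C was given. It had 654, 666 and 719.8 normalized counts in treated wrn-1(gk99), 876, 854 and 878 in untreated wrn-1(gk99), 665, 665 and 732 in treated N2 and 1521, 1461 and 1445 in untreated N2 worms. The untreated N2 libraries stood above all others, and the treated ones of both strains below the untreated mutants. The gene fell with vitamin C in N2 to 0.466 times the untreated mean (log2 -1.10, SE 0.07, adjusted p = 2.73e-06, limma), and without replicate 3 the log2 difference was -1.15. Treated mutants had 0.461 times the untreated N2 mean (adjusted p = 1.40e-06, limma) and untreated mutants 0.589 times (adjusted p = 3.16e-06, limma), the last short of 2-fold. In the mutant the treated mean was 0.782 times the untreated one (log2 -0.36, SE 0.07, adjusted p = 0.00361, limma).

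The pharyngeal gland gene nas-12 had 264, 270.0 and 248 normalized counts in treated wrn-1(gk99) worms, 148, 183 and 128 in untreated wrn-1(gk99), 208, 214 and 262 in treated N2 and 368, 446 and 437 in untreated N2. The untreated mutant libraries were the lowest and the untreated N2 libraries the highest. It fell in untreated mutants to 0.368 times the N2 mean (log2 -1.45, SE 0.14, adjusted p = 5.52e-06, limma). The treated libraries of the 2 strains overlapped only through replicate 3 of treated N2, as its other libraries lay below all treated mutants. The log2 difference between treated mutants and treated N2 was 0.20 (adjusted p = 0.3003, limma), and 0.30 (adjusted p = 0.0526, limma) without that library. The treated mutant mean was 1.70 times the untreated mutant mean (log2 0.78, SE 0.14, adjusted p = 0.00237, limma), and the treated N2 mean was 0.548 times the untreated N2 mean (log2 -0.87, SE 0.14, adjusted p = 0.00101, limma), neither at 2-fold. Without replicate 3 of treated N2 the N2 ratio was 0.507, still short of 2-fold. The difference between the 2 responses was 1.64 (SE 0.20, adjusted p = 1.02e-04, limma) and was called.

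The other grinder gene, nas-6, had 354, 368 and 359 normalized counts in treated wrn-1(gk99), 266, 248 and 275 in untreated wrn-1(gk99), 152, 125 and 338 in treated N2 and 305, 297 and 333 in untreated N2 worms. Replicates 1 and 2 of treated N2 lay below all other libraries, and replicate 3 lay within the range of the untreated N2 and treated mutant libraries. With all libraries the log2 difference between treated and untreated N2 was -0.74 (SE 0.27, adjusted p = 0.0691, limma). Without replicate 3 it was -1.17 (adjusted p = 7.81e-08, limma) and the gene was called. The difference between treated mutants and treated N2 was likewise 0.95 (adjusted p = 0.0704, limma) with that library and 1.38 (adjusted p = 8.79e-09, limma) without it.

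Among the other genes of subgroups I and II, nas-3 had the largest log2 difference of any nas gene that rose in untreated mutants. It had 173, 149.5 and 219.6 normalized counts in treated wrn-1(gk99) worms, 229, 208 and 224 in untreated wrn-1(gk99), 137, 149.9 and 171 in treated N2 and 43.0, 55.7 and 48.0 in untreated N2. All 9 libraries outside untreated N2 stood above the 3 within it. The untreated mutant mean was 4.51 times that of untreated N2 (log2 2.16, SE 0.16, adjusted p = 5.21e-07, limma), the treated N2 mean 3.12 times (log2 1.62, SE 0.16, adjusted p = 2.65e-05, limma) and the treated mutant mean 3.70 times (log2 1.86, SE 0.16, adjusted p = 7.26e-06, limma). Without replicate 3 the treated N2 mean was 143, under the read level required, with a log2 difference of 1.54. Vitamin C in the mutant went with a log2 difference of -0.30 (SE 0.16, adjusted p = 0.223, limma), and the responses differed by -1.92 (SE 0.22, adjusted p = 7.17e-05, limma). The study measured nas-3 also by RT-PCR, and its primers are shown because they are the only designed sequences for a nas gene in the sources used here. The gene lies on chromosome V, each primer has 21 bases and is written 5′ to 3′, and no base is marked:
nas-3 for: gggaatcacatctctggccaa
nas-3 rev: ctgctttgacgaccaatatag

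The gene nas-9 had 292, 300.4 and 289 normalized counts in treated wrn-1(gk99), 536, 545 and 527 in untreated wrn-1(gk99), 106, 114 and 294 in treated N2 and 163, 159 and 152 in untreated N2 worms. Replicate 3 of treated N2 lay among the treated mutants, and the other treated N2 libraries were the lowest of all. It rose in untreated mutants to 3.39 times the N2 mean (log2 1.76, SE 0.28, adjusted p = 2.94e-04, limma). Treated and untreated mutants did not overlap and differed by -0.86 on the log2 scale (SE 0.28, adjusted p = 0.0556, limma). Without replicate 3 of treated N2, which is in neither group, the SE was 0.07 and the adjusted p 1.08e-07 (limma), with a ratio of 0.548 that is short of 2-fold in either fit. The difference between treated mutants and treated N2 was 0.94 (adjusted p = 0.0704, limma), and without replicate 3 it was 1.41 (adjusted p = 9.91e-10, limma).

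For nas-8 the counts were 661, 655 and 675 in treated wrn-1(gk99), 583, 587 and 585 in untreated wrn-1(gk99), 451, 412 and 674 in treated N2 and 944, 884 and 925 in untreated N2 worms. Untreated N2 libraries were the highest. The responses to vitamin C differed by 1.06 (SE 0.20, adjusted p = 0.00233, limma), and by 1.27 without replicate 3 of treated N2. Without replicate 1 or 2 of treated N2 the difference was 0.98 or 0.92, and under scaling to equal totals it was 0.97, and the gene was not called in any of these 3 fits. In N2 itself the treated mean was 0.558 times the untreated one (log2 -0.87, SE 0.14, adjusted p = 0.00101, limma), and without that library the log2 difference was -1.09 and the gene was called.

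**Figure D3:**
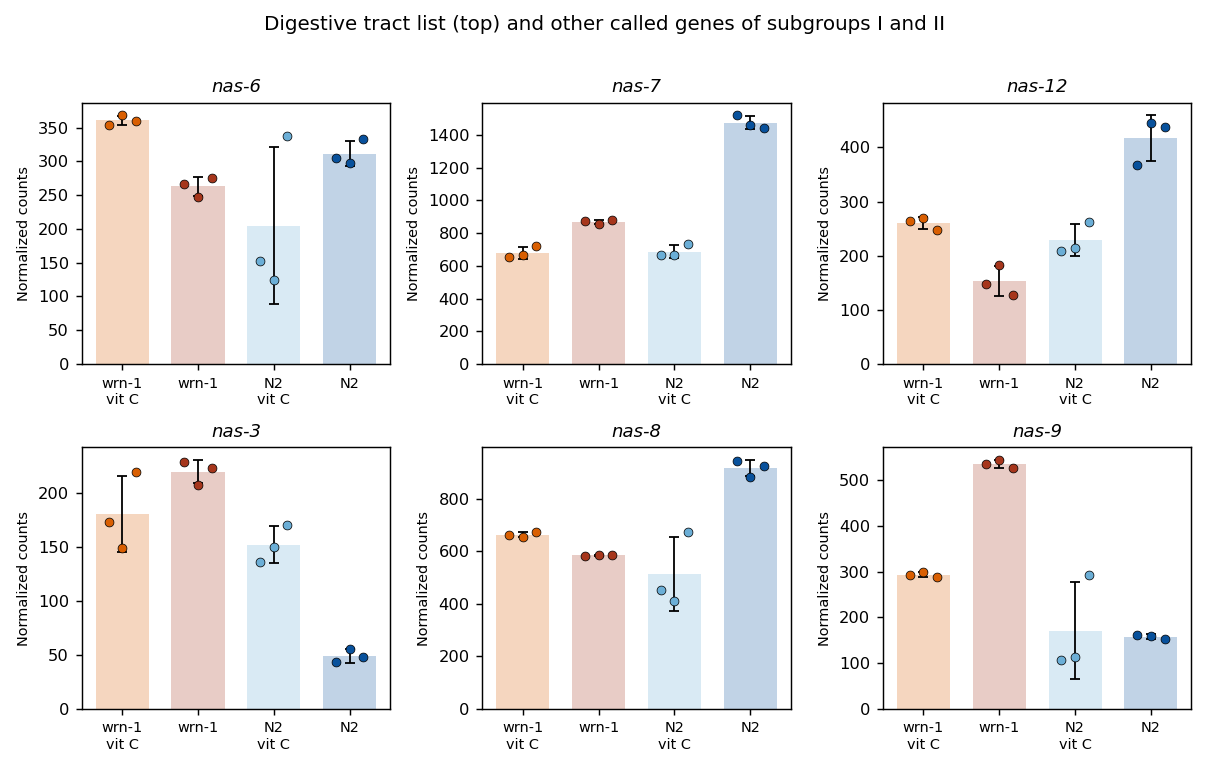
Normalized counts of the digestive tract list nas-6, nas-7 and nas-12 (top) and of nas-3, nas-8 and nas-9 (bottom) in the 4 groups; points are libraries, bars are means and error bars are SD (n = 3). The wide SD of treated N2 worms for nas-6, nas-8 and nas-9 comes with replicate 3, which stands at 338, 674 and 294 where the other treated N2 libraries stand at or under 152, 451 and 114.

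The genes nas-13, nas-14 and nas-15 had, like nas-6, their lowest counts in replicates 1 and 2 of treated N2. With all libraries limma called none of them. Without replicate 3 of treated N2 the nas-13 mean was 56.6 in treated against 124.8 in untreated N2. The highest group mean of nas-13, 134.8 in treated mutants, was under the read level required, so it could not be called in any comparison. Without that library limma called nas-14 and nas-15 but not nas-13. The most abundant of them, nas-15, had 3394, 2752 and 3059 normalized counts in treated wrn-1(gk99), 2107, 2111 and 2111 in untreated wrn-1(gk99), 1551, 1548 and 3055 in treated N2 and 2813, 2958 and 2807 in untreated N2 worms. Untreated mutants lay between replicates 1 and 2 of treated N2 below and all other libraries above. The difference between the responses was 1.09 (SE 0.29, adjusted p = 0.0160, limma) and without that library 1.42 (adjusted p = 8.34e-09, limma). Unlike these, nas-11 was highest in untreated mutants, at 1094, 1131 and 1073 in treated and 1546, 1560.3 and 1604 in untreated wrn-1(gk99) worms, against 919.7, 898 and 1053 in treated N2 and 1093, 1129.8 and 983 in untreated N2. Its ratio between untreated mutants and untreated N2 was 1.47 (adjusted p = 1.03e-04, limma) and that between treated and untreated mutants 0.700 (adjusted p = 7.79e-04, limma), both under 2-fold.

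Of the 7 genes of subgroup III, 3 fell in untreated mutants (nas-23, nas-27 and nas-28), against 6.16% of all genes, and 4 fell with vitamin C in N2 (the same 3 and nas-30), against 1.25% of all genes. Replicate 3 of treated N2 bears on the second count, which was 2 without it (nas-28 and nas-30), against 1.88%. None of the 7 was called higher in either comparison, though nas-25 in untreated mutants and nas-24 with vitamin C in N2 were over 2-fold higher at an adjusted p under 0.01 (limma) and missed only the read level. The gene nas-28 had 593, 569 and 626 normalized counts in treated wrn-1(gk99) worms, 357, 366 and 369 in untreated wrn-1(gk99), 564, 606 and 608 in treated N2 and 1286, 1245 and 1228 in untreated N2. The treated groups overlapped, with the untreated mutants below and untreated N2 above them. It fell in untreated mutants to 0.290 times the N2 mean (log2 -1.78, SE 0.07, adjusted p = 8.64e-09, limma) and in treated N2 to 0.473 times (log2 -1.08, SE 0.07, adjusted p = 2.73e-06, limma). In mutants, vitamin C went with 1.64 times the untreated mean (log2 0.71, SE 0.07, adjusted p = 2.83e-05, limma), under 2-fold. The responses differed by 1.79 (SE 0.10, adjusted p = 6.12e-07, limma), and by 1.81 without replicate 3.

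The largest decrease in untreated mutants among the 28 was that of nas-27, with 123, 123 and 123 normalized counts in treated wrn-1(gk99), 110.0, 101 and 108 in untreated wrn-1(gk99), 246, 296 and 112 in treated N2 and 451, 496 and 516 in untreated N2 worms. It fell to 0.218 times the N2 mean (log2 -2.18, SE 0.26, adjusted p = 3.30e-05, limma). The treated N2 libraries 1 and 2 lay between the strains, and replicate 3 lay with the mutants. In treated against untreated N2 it fell by 1.27 on the log2 scale (SE 0.26, adjusted p = 0.00493, limma). Without that library the log2 difference was -0.85 and the gene was not called, and without any 1 of the untreated N2 libraries 1, 2 or 3 the adjusted p was 0.0160, 0.0211 or 0.0227 (limma), above the threshold. It was 0.0638 in a fit of only these 2 groups and 0.0106 without the variance trend (limma), also above it. Treated mutants had 1.15 times the count of untreated ones (log2 0.21, SE 0.26, adjusted p = 0.669, limma).

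For nas-23 the counts were 451, 478 and 428 in treated wrn-1(gk99), 655, 621 and 639 in untreated wrn-1(gk99), 742, 687 and 427 in treated N2 and 1358, 1435 and 1318 in untreated N2 worms. The untreated N2 libraries stood above all others, of which 742 was the highest. It fell in untreated mutants to 0.466 times (log2 -1.10, SE 0.16, adjusted p = 1.31e-04, limma; -0.94 and not called under equal totals) and in treated mutants to 0.330 times the untreated N2 mean (log2 -1.60, SE 0.16, adjusted p = 2.51e-05, limma). In treated N2 it fell to 0.452 times (log2 -1.18, SE 0.16, adjusted p = 3.18e-04, limma), and without replicate 3 the log2 difference was -0.94 and the gene was not called. Nor was it in a fit of only these 2 groups (adjusted p = 0.0176, limma). Treated mutants had 0.708 times the untreated mutant count without overlap (log2 -0.50, SE 0.16, adjusted p = 0.0508, limma; adjusted p = 6.67e-06 without replicate 3 of treated N2).

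The libraries of nas-30, like those of nas-23, were lower with vitamin C in each strain without overlap, and its untreated mutant mean was 0.799 times that of untreated N2. It had 395, 345 and 362 normalized counts in treated wrn-1(gk99), 651, 639.7 and 604 in untreated wrn-1(gk99), 367, 416 and 326 in treated N2 and 737, 814 and 819.8 in untreated N2 worms. In N2 it fell with vitamin C to 0.468 times the untreated mean (log2 -1.10, SE 0.10, adjusted p = 1.60e-05, limma), and without replicate 3 the log2 difference was -1.01. The treated mutant mean was 0.464 times that of untreated N2 (adjusted p = 1.09e-05, limma) and 0.581 times that of untreated mutants (log2 -0.78, SE 0.10, adjusted p = 1.91e-04, limma). The responses differed by 0.32 (SE 0.14, adjusted p = 0.121, limma).

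**Figure D4:**
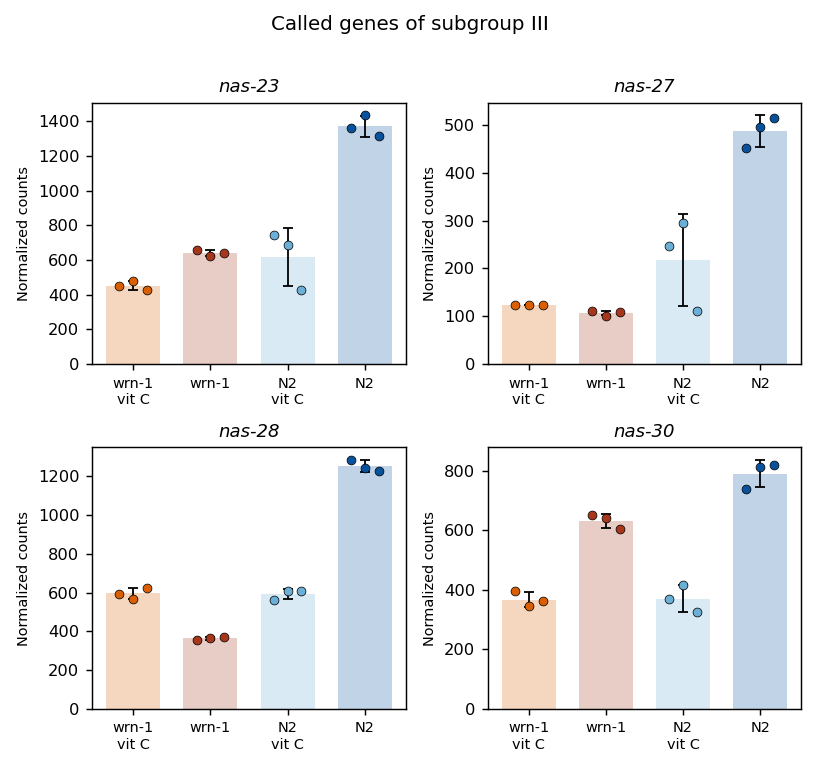
Normalized counts of nas-23, nas-27, nas-28 and nas-30, the called genes of subgroup III, in the 4 groups; points are libraries, bars are means and error bars are SD (n = 3). Untreated N2 stands highest in all 4 panels, untreated wrn-1 lowest only for nas-27 and nas-28, and nas-23 and nas-30 show treated libraries under untreated ones in each strain.

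The ecdysis and digestive lists were set against each other within each library. The summed count of nas-36, nas-37 and nas-38 was 3049 to 3154 in treated wrn-1(gk99), 4738 to 4848 in untreated wrn-1(gk99), 3123 to 3135 in treated N2 and 4044 to 4539 in untreated N2 worms. That of nas-6, nas-7 and nas-12 was 1271 to 1327 in treated wrn-1(gk99), 1281 to 1291 in untreated wrn-1(gk99), 1005 to 1332 in treated N2 and 2194 to 2214 in untreated N2. The molt sum was thus highest in untreated mutants and lowest in the treated groups, and the digestive sum was highest in untreated N2 and lower in the other 3 groups. The ratio of molt to digestive sums was 2.48, 2.34 and 2.38 in treated wrn-1(gk99), 3.73, 3.77 and 3.70 in untreated wrn-1(gk99), 3.04, 3.12 and 2.35 in treated N2 and 1.92, 2.06 and 1.83 in untreated N2 libraries. Untreated N2 had the lowest ratio and untreated wrn-1(gk99) the highest, with no overlap with other groups, and both treated groups stood between them. Replicate 3 of treated N2 stood at 2.35, within the treated mutants. The ratio is taken within each library and so does not depend on the scaling. With 3 libraries a group, no exact test can go below a two-sided p of 0.1, and no p is given for these sums. The sums also weigh nas-37, nas-38 and nas-7 most.

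Gene by gene, the lists were not uniform. In untreated mutants against untreated N2 the molt list held 1 gene that rose (nas-37), and nas-36 and nas-38 differed in opposite directions below 2-fold. The digestive list held 1 gene that fell (nas-12), with nas-7 at log2 -0.76 and nas-6 at -0.24 (adjusted p = 0.456, limma; 0.0184 without replicate 3 of treated N2). The nas-6 libraries of these 2 groups did not overlap. With vitamin C in the mutant the molt list had log2 differences of -1.09, -0.84 and -0.06 for nas-36, nas-37 and nas-38, and the digestive list 0.45, -0.36 and 0.78 for nas-6, nas-7 and nas-12. In N2 all 3 digestive genes had negative differences of -0.74 to -1.10. The difference of responses was positive for all 3 digestive genes, at 1.19 for nas-6 (adjusted p = 0.0378, limma), 0.75 for nas-7 (adjusted p = 1.76e-04, limma) and 1.64 for nas-12, the last called. In the molt list it was -0.30 for nas-36, -0.90 for nas-37 and 0.66 for nas-38 (adjusted p = 0.00180, limma), with none called.

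**Figure D5:**
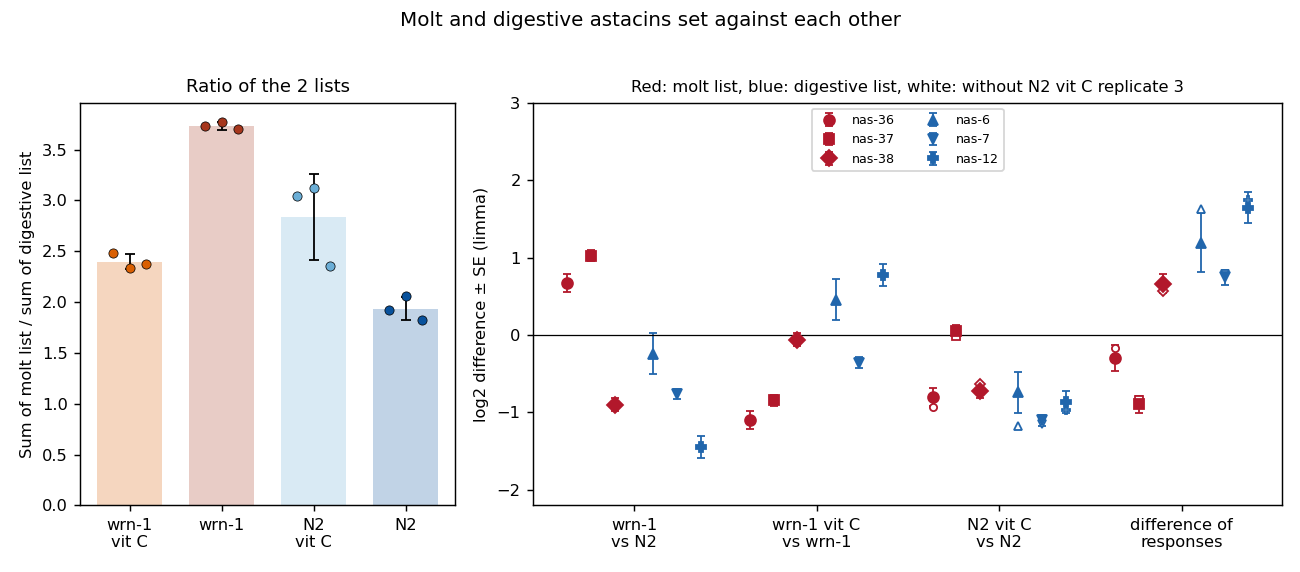
Left, the summed normalized count of nas-36, nas-37 and nas-38 over that of nas-6, nas-7 and nas-12 in each library, with group means and SD (n = 3); untreated wrn-1 stands at 3.70 to 3.77 and untreated N2 at 1.83 to 2.06. Right, log2 differences with SE for the 6 genes in 3 comparisons and in the difference of the responses to vitamin C (wrn-1 minus N2), with white symbols for the fit without N2 vitamin C replicate 3; the 3 digestive genes lie above zero in the last column.

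The genes that no comparison called included all of subgroups IV and VI and 9 of the genes of subgroups I and II. The tolloid-like member, nas-39, had 146, 141 and 119 normalized counts in treated wrn-1(gk99), 135, 131 and 135 in untreated wrn-1(gk99), 228, 275 and 132 in treated N2 and 181, 180.3 and 185 in untreated N2 worms. Replicates 1 and 2 of treated N2 were the highest and replicate 3 was among the mutants. Among genes of low count, nas-24 had group means of 41.0 in treated wrn-1(gk99), 18.4 in untreated wrn-1(gk99), 71.7 in treated N2 and 25.8 in untreated N2 worms. Its treated N2 libraries, at 89.5, 83.0 and 42.6, lay above the untreated ones. The treated mean of nas-24 was 2.78 times the untreated one in N2 (adjusted p = 0.00387, limma), below the read level required for a call, and 3.34 times without replicate 3. The same held for nas-1 in N2 (ratio 0.466, adjusted p = 0.00770, limma; 0.347 without replicate 3) and for nas-25 in untreated mutants (ratio 2.05, adjusted p = 0.00121, limma).

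Astacins that carry another symbol fall outside the rule and are given for comparison. The procollagen protease dpy-31 had 1516, 1547 and 1564 normalized counts in treated wrn-1(gk99), 1392, 1424 and 1481 in untreated wrn-1(gk99), 2691, 2605 and 1566 in treated N2 and 1397, 1339 and 1465 in untreated N2 worms. Only replicates 1 and 2 of treated N2 stood apart, with a log2 difference between treated and untreated N2 of 0.67 (SE 0.16, adjusted p = 0.0103, limma), and of 0.92 (adjusted p = 2.09e-09, limma) without replicate 3. The hatching enzyme hch-1 had 99.7, 84.5 and 68.7 in treated wrn-1(gk99), 26.5, 20.2 and 24.9 in untreated wrn-1(gk99), 115, 126 and 109 in treated N2 and 107, 118 and 133 in untreated N2. Its untreated mutant libraries lay below all others, at 0.200 times the N2 mean (adjusted p = 6.04e-07, limma), and treated mutants had 3.53 times the untreated mutant count (adjusted p = 2.64e-05, limma). No group mean of hch-1 reached the level required for a call. The third, toh-1, a tolloid homolog that was added after its values were seen, had 564, 544 and 506 in treated wrn-1(gk99), 923, 916 and 906 in untreated wrn-1(gk99), 309.7, 395 and 541 in treated N2 and 715, 626 and 714 in untreated N2 worms. Like nas-36, it was highest in untreated mutants and lower with vitamin C in each strain, at 0.588 times in mutants (adjusted p = 0.00477, limma) and 0.606 times in N2 (adjusted p = 0.00444, limma; 0.515 times without replicate 3), under 2-fold.

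Of 18 molt and cuticle partners of these enzymes, 2 were called higher and 1 lower in untreated mutants against untreated N2, beside 3.97% and 6.16% of all genes. The genes mlt-10, named for its molting defect (log2 1.53), and nhr-25, a nuclear hormone receptor needed for molting (log2 1.32), rose. The dual oxidase gene bli-3, whose product cross-links cuticle proteins, fell by 1.39. At an adjusted p under 0.01 with any fold, 9 of the 18 differed (4 higher, 5 lower), beside 41.2% of all genes, among them nhr-23 just under 2-fold (log2 1.00) and mlt-9 (log2 -0.78). With vitamin C in mutants mlt-10 was the only 1 of the 18 called, falling by 1.22, where 0.45% of all genes were called lower. By the adjusted p alone nhr-25 (log2 -0.76) and mlt-7 (log2 -0.55) were lower and bli-3 (log2 0.72) higher there too, so that 4 of 18 differed, beside 9.46% of all genes. In N2 nhr-23, a nuclear hormone receptor that drives molting genes, and the apical matrix genes noah-1 and noah-2 rose with vitamin C (log2 1.22, 1.30 and 1.26), beside 1.08% of all genes. At an adjusted p under 0.01 with any fold (limma), 5 of the 18 differed in N2, beside 11.8% of all genes. Besides those called, nhr-25 was higher (log2 0.50) and bli-3 lower (log2 -0.71). Without replicate 3 there were 6 called higher (fbn-1, mlt-11, nhr-23, noah-1, noah-2 and qua-1) and 1 lower (mlt-10), beside 2.42% and 1.88%.

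Of 11 gut proteases of other families, the lysosomal and digestive cathepsins of the cpr and asp genes, 5 were called higher in untreated mutants (asp-1, asp-3, asp-6, cpr-1 and cpr-5) and 0 lower, beside 3.97% and 6.16% of all genes. Short of 2-fold but at an adjusted p under 0.01 (limma), asp-2 and asp-5 were higher (log2 0.73 and 0.80), and asp-4, cpr-6 and cpr-3 were lower (log2 -0.99, -0.90 and -0.65). The median log2 difference was 0.80 for these 11, against -0.76 for the digestive astacin list and 0.01 for all genes. With vitamin C, 1 of the 11 was called higher in mutants (cpr-3, log2 1.12), beside 1.23% of all genes, and none was called in N2, where cpr-6 had a log2 difference of -0.55 (adjusted p = 1.5e-04, limma).

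The marker lists of the tissues moved beside these counts. The summed count of 6 intestine markers was 18958 to 20389 in treated wrn-1(gk99), 29169 to 29616 in untreated wrn-1(gk99), 13965 to 19513 in treated N2 and 15870.3 to 16555 in untreated N2 worms, and none was at 0. That of 6 pharynx markers was 6981 to 9019.7 in treated wrn-1(gk99), 12594 to 13496 in untreated wrn-1(gk99), 4527 to 7185 in treated N2 and 5747 to 6005 in untreated N2. That of 6 epidermis markers was 13702 to 13881 in treated wrn-1(gk99), 17918 to 18455 in untreated wrn-1(gk99), 14084 to 16913 in treated N2 and 12477 to 12909 in untreated N2. The 6 germline markers summed to 13454 to 14631 in treated wrn-1(gk99), 15288 to 15706 in untreated wrn-1(gk99), 8037 to 13438 in treated N2 and 9953 to 10326 in untreated N2. The sperm markers were low, with sums of 23.8 to 81.0 over all libraries, mainly from gsp-4 outside the untreated mutants. In untreated mutants gsp-3 had 11.9, 16.2 and 12.9 normalized counts and gsp-4 had 21.4, 22.7 and 11.9. In untreated N2 gsp-3 had 0, 0 and 2.13 and gsp-4 had 32.2, 62.3 and 78.9. In untreated mutants the sums of the intestine, pharynx, epidermis and germline lists lay above those of untreated N2, while the digestive astacin sum lay below. The lists were not uniform. In the epidermis list the higher sum came with rol-6, at 9845 to 10808 in untreated mutants and 2770 to 3086 in untreated N2, while lin-26 was lower (log2 -0.96, adjusted p = 5.6e-04, limma) and che-14 had a log2 difference of -0.71 (adjusted p = 0.024, limma). The transcription factor genes elt-2 of the intestine (log2 -0.71) and pha-4 of the pharynx (log2 -0.48) were also lower, both at an adjusted p under 0.01 (limma). In treated N2, replicate 3 gave the highest sum for intestine, pharynx and germline (19513, 7185 and 13438) and the lowest for epidermis (14084). Their part in the results was not tested.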

How the data were processed

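RNA of 12 whole-worm samples was sequenced from TruSeq libraries on a HiSeq instrument. The authors mapped reads on ce10 with TopHat, obtained gene counts from htseq-count and normalized these for depth with DESeq. The deposited signal is this normalized count, and versions, strand setting and counting mode are not given in the sources used here. All 12 value columns were matched to samples by name. In every library 100% of values were whole multiples of one step (tolerance 0.01), so reads were recovered for edgeR 4.0.16 and DESeq2 1.42.0. The depth was 13446257 to 34234211 reads on genes.

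The main test was limma 3.58.1 (R 4.3.3, eBayes with trend) on log2(normalized count + 1). It covered 15332 genes (mean 5 or more) and all 12 libraries, 4 groups sharing 1 variance, with Benjamini-Hochberg adjustment over all of them. Fold changes on that scale are shrunken for low counts. A gene was called at an adjusted p under 0.01, group means in a ratio of 2 or more or 0.5 or less, and a mean above 145 in a compared group (interaction: a log2 difference of at least 1 and a mean above 145 in any group). The study calls the libraries of a group biological replicates, but labels do not name separate cultures, and p-values then measure only the spread between these samples. The chi-square per gene between the counts of 2 libraries is about 1 under counting error alone. Between replicates 1 and 2 it was 1.70 in untreated N2 and 1.35 in untreated wrn-1(gk99). With replicate 3 it was 5.43 and 6.57 in untreated N2 and 8.61 and 8.82 in untreated wrn-1(gk99). The origin of this closeness was not tested. On simulated data (15268 genes, untreated wrn-1 against untreated N2) limma recovered 200 of 200 changed genes with 0 false calls. The same numbers came from edgeR and DESeq2. The planted changes were all larger than 2-fold and lay in genes with means well above 145. Every simulated gene had the same dispersion, and no simulated library stood apart from its group. The recovery thus does not tell how calls near the thresholds perform. How many calls were missed or false in the measured libraries was not tested.

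The members and lists were chosen with earlier results of these data known. Values per library are given for members called in any comparison, for the molt list (nas-36, nas-37, nas-38), the digestive tract list (nas-6, nas-7, nas-12), dpy-31 and hch-1, and other genes with per-library values (nas-11, nas-15, nas-39, toh-1) were picked after their values were seen. Alternatives were 0.1 and 10 as pseudocount, means of at least 10 or 50 or no filter, no minimum group mean, fold changes from limma, equal upper quartiles or totals, only the groups compared, no variance trend, an adjusted p under 0.05, a replicate block, edgeR, DESeq2 and each library left out. Fits of edgeR, DESeq2 and the compared groups that also leave out N2 vitamin C replicate 3 were added after seeing the data. Names, exon lengths and chromosomes come from WBcel235, which is not the build of the counts, so no coordinates are given. The study's RT-PCR values were not used here.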

Additional observations from a re-analysis of the deposited data

Results flagged for a closer look

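The response to vitamin C differed between wrn-1(gk99) and N2 by the test of the difference itself for 4 nas genes. The difference, wrn-1(gk99) minus N2 on the log2 scale, was -1.92 for nas-3, 1.06 for nas-8, 1.64 for nas-12 and 1.79 for nas-28. For nas-3 the own responses were -0.30 in wrn-1(gk99) and 1.62 in N2, for nas-8 0.18 and -0.87, for nas-12 0.78 and -0.87 and for nas-28 0.71 and -1.08, with the mutant given ahead of N2 each time. All 4 were also called without N2 vitamin C replicate 3, at -1.84 for nas-3, 1.27 for nas-8, 1.75 for nas-12 and 1.81 for nas-28. Under scaling to equal totals nas-8 stood at 0.97, and without N2 vitamin C replicate 1 or 2 at 0.98 or 0.92, and it was not called in these 3 fits. In untreated worms these 4 genes had log2 differences between the strains of 2.16, -0.65, -1.45 and -1.78, with nas-8 not called. These values enter the differences of responses with the opposite sign, so they are not a separate observation.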

How the results depend on the processing

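The numbers of nas genes called were 7 in untreated wrn-1(gk99) against N2, 1 for vitamin C in wrn-1(gk99), 6 for vitamin C in N2, 6 in treated wrn-1(gk99) against untreated N2, 0 between the treated strains and 4 for the difference of responses. Scaling to equal totals gave 3 for vitamin C in N2 and 3 in treated wrn-1(gk99) against untreated N2 (nas-3, nas-23 and nas-27 in each), with 2.59% and 3.37% of all genes, and 3 for the difference of responses, where nas-8 was lost. For vitamin C in N2 the fit of only the compared groups gave 4, without nas-23 and nas-27, and called 130 genes in all against 358, and the fit with no variance trend gave 5, without nas-27. For the difference of responses DESeq2 gave 7 and an adjusted p under 0.05 gave 8, with 6.76% and 6.77% of all genes against 5.75%. Between the treated strains DESeq2 called 156 genes in all, none of them a nas gene. Leaving out each library in turn gave 6 to 7, 1 to 1, 5 to 6, 6 to 6, 0 to 4 and 3 to 8 in the same order, and N2 vitamin C replicate 3 gave the values 4 and 8. Without that library edgeR, DESeq2 and the fit of only the compared groups also gave 4 between the treated strains, and edgeR and DESeq2 gave 8 for the difference of responses. Deviations of same-numbered libraries of different groups correlated at -0.06 to 0.12, and those of other numbers at -0.11 to 0.08. The pairs among replicates 1 (0.05 to 0.10) and among replicates 3 (0.03 to 0.12) were all positive. Those of replicate 1 with replicate 3 were all negative (-0.11 to -0.03). The labels do not say what the numbers stand for. A replicate block in the fit gave 7, 1, 6, 6, 0 and 4. The fit of only the compared groups was not run for the difference of responses, to which all groups belong. No call changed direction under any of the 30 alternatives. The causes of these shifts were not tested. Genes with a few reads per library, such as nas-10 with 1 to 14 normalized counts, carry large counting error.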
